A study of Mus musculus with 109 samples.

Results

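The genes described here build and run the primary cilium. They were chosen by name as 38 genes of intraflagellar transport (IFT), the BBSome, the transition zone and the ciliary base, and 35 of them were found among the 15973 genes of the raw count table. Ift22 was listed under its older symbol Rabl5, while the expression of Bbs10, Bbs12 and Gpr161 was not analysed here. The 109 single cells came from P7 mouse cerebella (strain C57BL/6 in the labels, while the methods of the study name ICR pups), and the labels name no treatment or genetic change. Granule cell progenitors (GCPs) were enriched on a Percoll gradient, captured singly on C1 Fluidigm chips and turned into Smart-seq libraries of total RNA. By their labels the cells fell into 6 library groups, with 18 or 19 cells in each. As nothing in the labels ties these groups to separate animals, the p-values below measure only the spread between library groups, which may be technical.

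Levels are given as CPM (1000000 times the count divided by the total count of the cell). Cells with at least 100 CPM of Mki67, which encodes the proliferation antigen KI67, formed the Mki67-high class of 32 cells. Cells under 10 CPM formed the Mki67-low class of 75 cells, and 2 cells lay in between. The lowest Mki67-high cell had 132 CPM of Mki67 and the highest Mki67-low cell had 9.27 CPM. The Mki67-low cells were divided at their median of 1781 CPM of Dcx, the microtubule-associated protein doublecortin of young migrating neurons, into 38 Dcx-high and 37 Dcx-low cells.

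A primary cilium is a single antenna of microtubules that grows from the mother centriole of a resting or G1 cell and is taken down before mitosis. IFT-B trains carry cargo from the base to the tip, IFT-A trains carry it back, the BBSome takes membrane proteins out of the cilium, and the transition zone is the gate at its base. In GCPs the cilium is the place where Sonic hedgehog from Purkinje cells acts through Ptch1, Smo and the Gli factors, and progenitors that lack IFT fail to expand.

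Total counts ranged from 15071 to 8616017 per cell (median 3604792), and 2771 to 13533 genes were detected per cell (median 4312). The reads carry no molecular identifiers, so all intervals below cover counting error only. Of the 9 listed granule lineage genes, Neurod1 was detected in 109 of the 109 cells, Zic1 in 108, and Pax6 and Meis1 in 106 each. Zic2 was seen in 88 cells, Mfap4 in 86, Barhl1 in 69, Gli1 in 19 and Atoh1 in 18. At 1 count the 8 astroglial genes were seen in 11 (Gfap) to 89 cells (Slc1a2). The 8 oligodendrocyte lineage genes were seen in 6 (Mog) to 86 cells (Mbp). Multiciliated ependymal cells, whose motile cilia use many of the same genes, were represented by 4 of 12 listed markers. Their summed level had a median of 0 CPM in both Mki67 classes, but single cells had more. The highest cell had 62.7 CPM in the Mki67-high class and 1213 CPM in the Mki67-low class. The 4 markers were seen in 3 (Mcidas and Dnah9) to 13 cells (Hydin). A pair of Mki67-high cells, from library groups 2 and 5, stood apart. They had 12684 and 13533 detected genes, against at most 6420 in any other cell, and carried at least 1 count of all 35 cilium genes. Both also had 7 of 8 astroglial genes at 50 CPM or more. At least 5 of these genes reached that level in 3 of 32 Mki67-high and 2 of 75 Mki67-low cells. Interneuron markers (Gad1, Gad2 and Pax2) reached 50 CPM in 0 of 32 Mki67-high, 10 of 38 Dcx-high and 2 of 37 Dcx-low cells.

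The promoters of cilium genes often hold an X-box, the site bound by RFX factors, which switch on cilium genes in many animals. Of the RFX genes, Rfx3 was detected in 78 and Rfx7 in 71 of the 109 cells. RefSeq promoters (build GRCm38.p6, 250 bases before to 50 bases after the transcription start) were found for 35 of the 38 listed genes. Ift80, Ift81 and Ift122 had no entry. These 35 include Bbs10, Bbs12 and Gpr161, so they are not the same 35 genes as those of the count table. An X-box was searched as the letters GTTNCC and GGNAAC (N is any base), separated by 1 to 3 bases, which reads the same on both strands. Without a mismatch it occurred in the promoters of 5 of the 35 genes (14.3%), beside 244 of 27025 genes in all (0.903%). With at most 1 mismatch it occurred in 14 of 35 genes (40.0%), beside 5.47% of all genes. The letters CCAAT, the core of the NF-Y site, occurred on either strand in 21 of 35 genes (60.0%), beside 41.1% of all genes. The 5 promoters are those of the BBSome subunit gene Bbs7, the IFT-B gene Ift57 and the transition zone genes Mks1, Tctn1 and Tctn3. The 150 bases before the start are shown for those whose site lies there, on the strand of the gene, with the X-box in capitals, because the exact site was found in a larger share of these genes than of all genes.
Bbs7 (chr3:36613390-36613539, minus strand): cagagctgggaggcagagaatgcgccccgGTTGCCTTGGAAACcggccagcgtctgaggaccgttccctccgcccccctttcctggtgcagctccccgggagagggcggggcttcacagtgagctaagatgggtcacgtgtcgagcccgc
Ift57 (chr16:49699144-49699293, plus strand): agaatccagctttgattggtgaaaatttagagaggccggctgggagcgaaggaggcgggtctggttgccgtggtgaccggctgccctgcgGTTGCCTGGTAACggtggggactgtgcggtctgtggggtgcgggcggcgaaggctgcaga
Mks1 (chr11:87853065-87853214, plus strand): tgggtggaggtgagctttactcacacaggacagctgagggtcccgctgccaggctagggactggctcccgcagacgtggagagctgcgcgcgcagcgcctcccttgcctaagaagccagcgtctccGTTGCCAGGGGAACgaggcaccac
Tctn3 (chr19:40612232-40612381, minus strand): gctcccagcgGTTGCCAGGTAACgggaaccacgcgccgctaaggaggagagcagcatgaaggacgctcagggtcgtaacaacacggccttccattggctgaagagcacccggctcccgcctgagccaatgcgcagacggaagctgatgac
In Tctn1 the site GTTGCCCGGGCAAC lies downstream of the start, at bases 37 to 50 (chr5:122264411-122264424, minus strand). These 5 genes did not share a level of detection. Bbs7 was seen in 50 of the 109 cells, Ift57 in 26, Tctn1 in 22, Tctn3 in 7 and Mks1 in 6. A match is a description of the letters and was not tested for binding.

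Each cilium gene was detected in part of the cells. The shares ran from 5.50% (6 cells, Wilson 95% interval 2.55 to 11.5) for Mks1 and for the BBSome gene Bbs5 to 64.2% (70 cells, 54.9 to 72.6) for Ift20, the IFT-B subunit that also works at the Golgi. The next most widely detected genes were Ttbk2, the kinase that licenses the mother centriole to grow a cilium, in 56 cells, Ift46 in 52, and Ift74 and Bbs7 in 50 each. A cell held at least 1 count of 2 to 35 cilium genes, with a median of 9. Many of these were low counts. Of the cells with Tctn1 and Tctn2, 90.9% and 86.2% held 1 to 4 counts. In library groups where 1 cell or more had at least 1000 counts of a cilium gene, 24.9% of the values of the other cells for that gene were counts of 1 to 4, compared with 7.47% in library groups without such a cell. The part of shared reads in these low counts was not tested, and numbers are therefore also given for a minimum of 5 counts. At that minimum a cell held a median of 4 cilium genes, and Ift43 (29 cells), Ift74 (28 cells), and Ift20, Ift27 and Ttbk2 (27 cells each) led the order.

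The complexes were unevenly covered. At least 5 counts of an IFT-B gene were found in all but 21 of the 109 cells (19.3%). Cells without any gene at 5 counts made up 39.4% for the 9 transition zone genes, 56.0% for the 6 BBSome genes, 62.4% for the 3 IFT-A genes and 72.5% for the small GTPases Arl13b and Arl3, which run the ciliary membrane and its lipidated cargo. Lists with more genes have more chances of a count, so these shares are not comparable as levels. Correlations between cilium genes lay on both sides of 0. Over 595 pairs and the 106 cells without the 3 of unusual depth or gene number, the median Spearman correlation of CPM was 0.02 (range -0.35 to 0.44). It was 0.03 over the 113 pairs within a complex and 0.02 over the 482 pairs between complexes. The highest value joined Arl13b and Mks1 (0.44), followed by Arl13b and Cep290 (0.42). The points share their depth, most values are 0, and other gene pairs were not computed, so these values are descriptions.

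Levels were compared between genes as CPM per kilobase of exon, averaged over the cells of each library group and then over the 6 groups. Ift74, a core IFT-B subunit that binds tubulin with Ift81, was highest at 61.1 CPM per kilobase (162 ± 102 CPM, SD, n = 6 library groups). Its lowest library group had 38.9 CPM, its median was 176 CPM and its highest was 309 CPM. B9d2 of the transition zone followed with 36.7 CPM per kilobase, then Ift52 with 28.2, Ift43 with 25.8, B9d1 with 24.6 and Bbs7 with 23.4. The SD of B9d2 (53.4 ± 47.3 CPM) and of Ift52 (79.0 ± 69.2 CPM) was nearly as large as the mean, so that these neighbours did not differ beyond their spread. At the lower end stood Mks1 with 0.196, Tctn1 with 0.099 and Tctn2 with 0.053 CPM per kilobase. The means rested on few cells. For 14 of the 35 genes, among them Bbs7, Ift88 and Arl13b, a single cell gave more than 50% of the summed CPM, and the share of the top cell reached 84.1% for Ift172, 85% for Ift140 and 92.1% for Tctn1. For Ift74, 6 cells were needed to reach 50%.

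**Figure D1:**
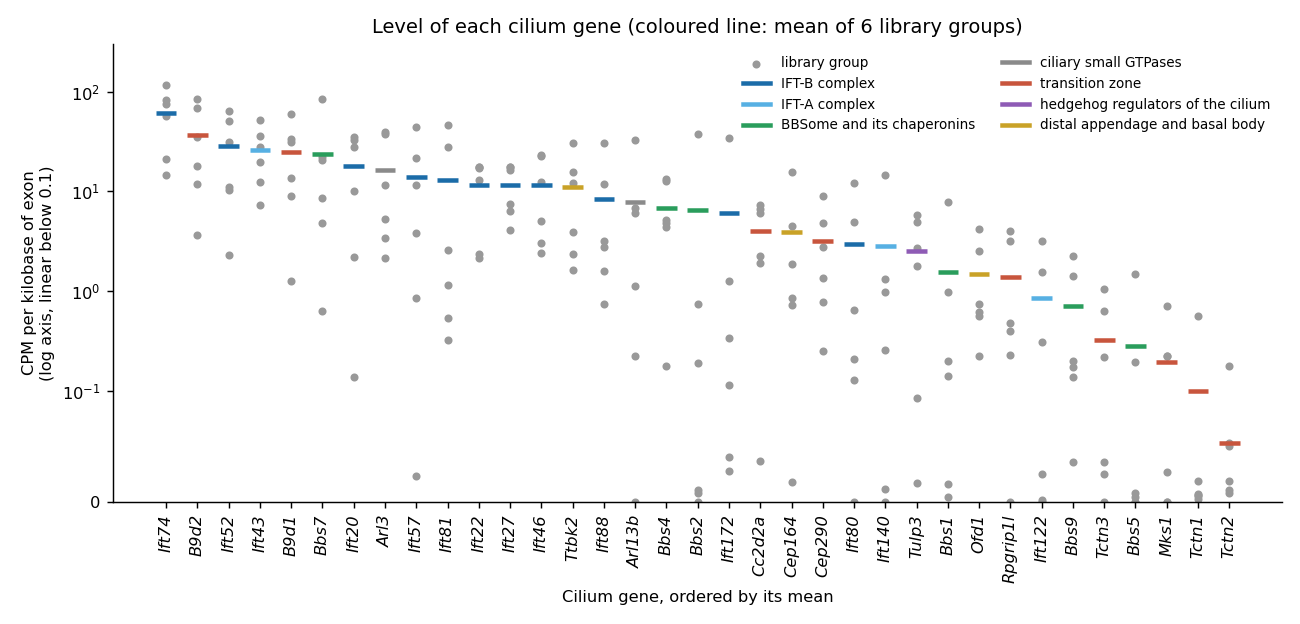
Level of each cilium gene in CPM per kilobase of exon on a log axis that is linear below 0.1. Grey points are the means of the 6 library groups and the coloured line is their mean, with the colour giving the complex. Ift74 leads at 61.1 and Tctn2 is lowest at 0.053.

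More cilium genes were detected in the Mki67-high than in the Mki67-low cells. At a minimum of 1 count the median was 11 of 35 genes (range 7 to 35) in Mki67-high cells and 9 (range 2 to 18) in Mki67-low cells. At a minimum of 5 counts it was 6 and 4. The mean number at 1 count was higher in the Mki67-high cells in 6 of 6 library groups, at 12.6 ± 3.07 against 8.81 ± 1.36 genes (SD, n = 6 library groups). Without the 3 cells of unusual depth or gene number it was 11.4 ± 1.41 against 8.81 ± 1.36, again higher in 6 of 6. At 5 counts the same cells gave 6.55 ± 1.83 against 4.05 ± 0.658 genes, also in 6 of 6. Without the 5 cells rich in astroglial genes (3 Mki67-high and 2 Mki67-low) the medians at 1 count were 11 and 9. Mki67-high cells had more detected genes of any kind, with a median of 4968 against 4193. As a share of the detected genes, the cilium genes had a median of 0.230% and 0.206%, and 0.224% and 0.183% after every cell was thinned to 1110182 counts. Before thinning and with all cells, the mean share was higher in the Mki67-high class in 5 of 6 library groups.

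**Figure D2:**
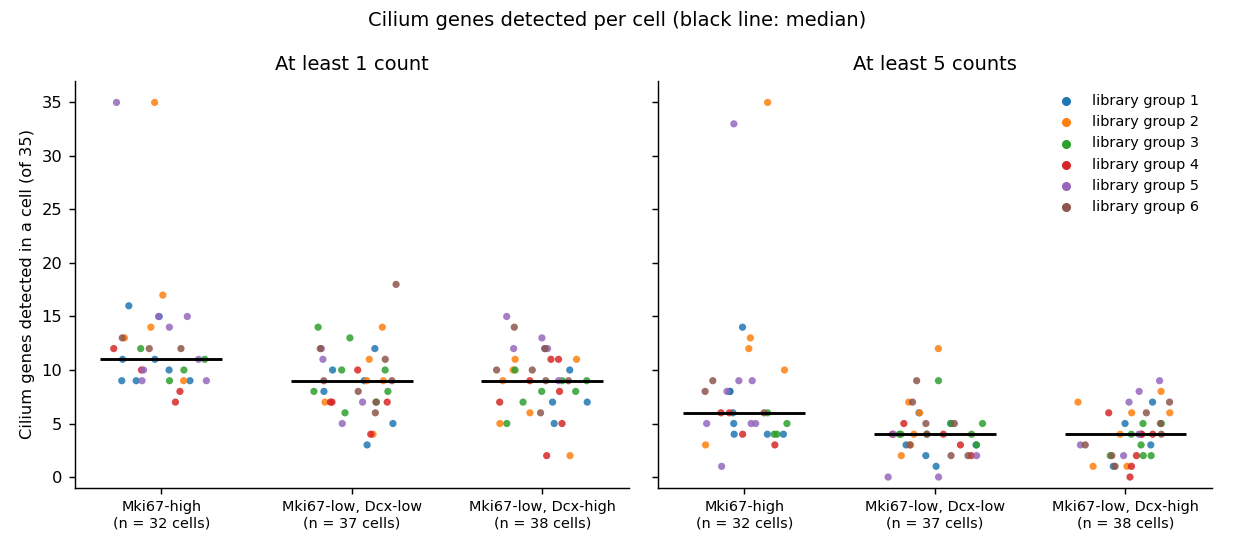
Number of the 35 cilium genes detected in each cell, at a minimum of 1 count (left) and of 5 counts (right), with cells coloured by library group and the median as a black line. The medians were 11, 9 and 9 on the left and 6, 4 and 4 on the right. The cells at 33 and 35 genes belong to the Mki67-high class.

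Gene by gene, 30 of the 35 cilium genes were detected in a larger share of the Mki67-high than of the Mki67-low cells (85.7%), beside 79.2% of the 15972 genes other than Mki67. The median difference was 11.8 percentage points for the cilium genes and 5.83 for all genes. At a minimum of 5 counts the numbers were 33 of 35 (94.3%) beside 83.5%. Without the 3 unusual cells they were 28 of 35 (80.0%) beside 62.6%, with median differences of 8 and 2.67 points, and 28 of 35 beside 64.3% at 5 counts. Cep290, the large scaffold between microtubules and membrane in the transition zone, was found in 17 of 32 Mki67-high cells (53.1%) and 21 of 75 Mki67-low cells (28.0%), with the larger share in the Mki67-high class in 5 of 6 library groups. Ift80 was found in 15 of 32 (46.9%) and 9 of 75 cells (12%), Ift140 in 11 (34.4%) and 8 (10.7%), and Rpgrip1l, which anchors transition zone modules, in 10 (31.3%) and 8 (10.7%). Bbs7 was found in 20 of 32 (62.5%) and 30 of 75 cells (40.0%). The genes with the larger share in Mki67-low cells were Ift46 with 40.6% and 50.7%, Ttbk2 with 46.9% and 53.3%, Ift172 with 18.8% and 22.7%, Bbs4 with 34.4% and 37.3%, and Ift43 with 40.6% and 41.3%. At 5 counts the larger share was in the Mki67-high cells for Ift46 (34.4% and 16%), Ift172 (18.8% and 9.33%) and Ift43 (28.1% and 25.3%), and in the Mki67-low cells for Ttbk2 and Bbs4. By complex, 1 of 32 Mki67-high and 19 of 75 Mki67-low cells lacked an IFT-B gene at 5 counts, and 5 of 32 and 37 of 75 lacked a transition zone gene. For the others the numbers of cells were 13 and 47 (BBSome), 14 and 53 (IFT-A) and 15 and 43 (distal appendage and basal body). They were 20 and 57 for the small GTPases and 26 and 64 for Tulp3. All cells entered these numbers, and a share over all genes was not computed for them.

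**Figure D3:**
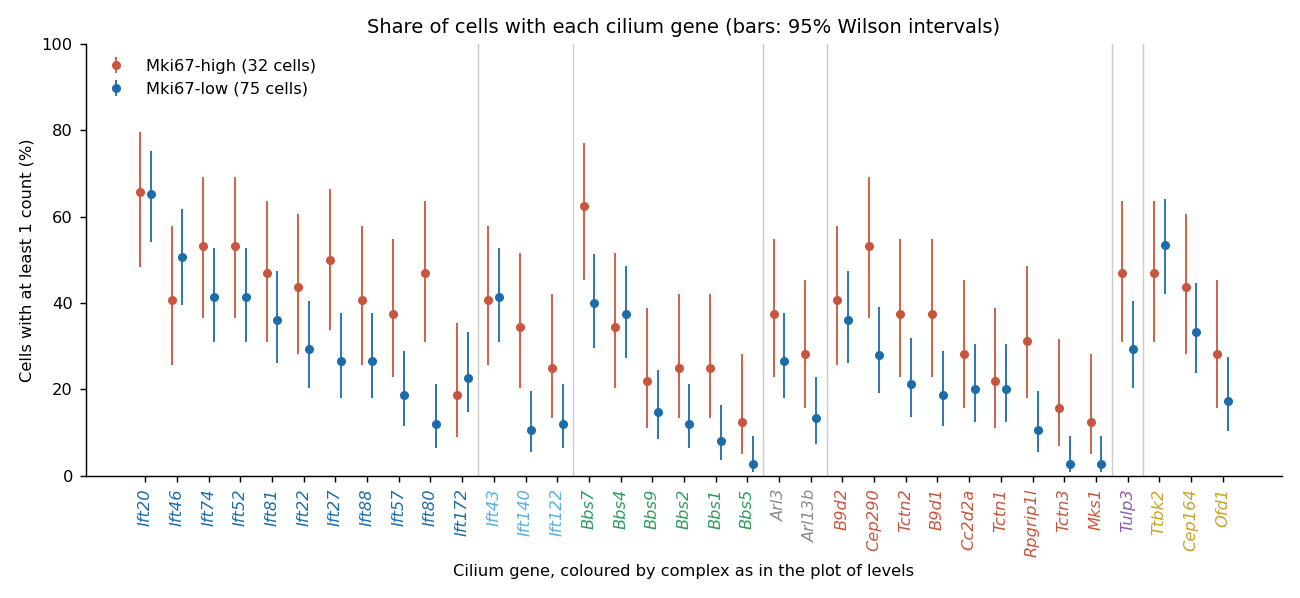
Share of cells with at least 1 count of each cilium gene in Mki67-high (32 cells) and Mki67-low cells (75 cells), with 95% Wilson intervals and genes grouped by complex. The Mki67-high share is the larger one for 30 of 35 genes. The intervals cover counting error only and not the spread between library groups.

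For levels, the raw counts of all cells of a class were added up within every library group (3 to 15 cells and 9376998 to 66286508 counts per sum) and compared with edgeR's quasi-likelihood test, with Benjamini-Hochberg adjustment over all genes tested. Mki67 was left out as it set the classes. Lineage genes were looked at first. Dcx had 712 ± 583 CPM in the Mki67-high and 2811 ± 873 CPM in the Mki67-low sums (SD, n = 6) and was lower in 6 of 6 library groups (log2 fold change -2.23, adjusted p = 0.372 from edgeR). Tubb3, a neuronal tubulin, was also lower in 6 of 6 (-1.48), and Ccnd2, which encodes cyclin D2, was higher in 5 of 6 (0.89, adjusted p = 0.652 from edgeR). The log2 fold change was 1.13 for Pcna, 3.85 for the progenitor factor Atoh1, 1.46 and 1.24 for the hedgehog targets Gli1 and Ptch1, and -1.12 for Rbfox3, a marker of mature neurons. None of these genes was called.

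Of the 28 cilium genes that passed the filter on low counts, 0 had an adjusted p-value under 0.01 in edgeR, beside 2 of 9084 genes in all (0.022%), which were the mitotic genes Tacc3 and Cdc20. Under 0.05 there were also 0 cilium genes, beside 6 of all genes (0.0661%). At an unadjusted p-value under 0.05 there were 3 cilium genes higher and 0 lower in Mki67-high cells, beside 2.94% and 4.39% of all genes. The lowest adjusted p-value of a cilium gene was 0.517. DESeq2 on the same sums called 376 of 12585 genes and 1 of 26 cilium genes. The called cilium gene was the transition zone gene Mks1 (log2 fold change 8.80, SE 2.0, adjusted p = 0.000655 from DESeq2), which edgeR had left out for low counts. Mks1 had 494 counts in 4 Mki67-high cells, 51.2% of them in 1 cell, and 3 counts in 2 Mki67-low cells. Without the 3 unusual cells it was seen in 2 of 30 Mki67-high and 2 of 75 Mki67-low cells. Limma called 76 genes, 0 of them cilium genes. Higher values in 6 of 6 library groups were found for 0 of the 28 genes (2.19% of all genes) and lower values in 6 of 6 for 1, Bbs4 (3.20% of all genes). No gene of the 35 had classes that did not overlap, and the share of such genes among all genes was not computed. Of the 28, 15 had a positive log2 fold change (53.6%, against 45.2% of all genes). Their median was 0.15, against -0.18 over all genes, and 0.06 against 0.04 without the 3 unusual cells. The biological coefficient of variation was 172%, so that the spread between library groups was wide. The untested genes were Ift122, Bbs2, Bbs5, Tctn1, Tctn2, Tctn3 and Mks1.

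The 8 genes with the smallest p-values came from several complexes. Ift140, a core subunit of IFT-A, had 0 to 760 CPM in the Mki67-high sums (median 15.1) and 0 to 2.96 CPM in the Mki67-low sums (median 0.129). The groups overlapped at 0, and 4 of 6 library groups were higher in Mki67-high cells. Its log2 fold change was 7.38 (SE 2.56, adjusted p = 0.517 from edgeR), and 1 cell of library group 4 held 78.7% of the Mki67-high counts. Without that group the value was 3.56, and limma on cell means gave 1.11. For Ift80, the IFT-B subunit affected in Jeune syndrome, the Mki67-high sums ran from 0 to 414 CPM (median 16.1) and the Mki67-low sums from 0 to 3.02 CPM (median 0.456). Library groups 4 and 6 had 0 in the Mki67-high class, and the log2 fold change was 6.38 (SE 2.51, adjusted p = 0.60 from edgeR). In this class 1 cell held 69.2% of the Mki67-high counts. Ift172, which reaches the ciliary tip and turns the train, depended on a single library group. It had 835 CPM in the Mki67-high sum of library group 4 and at most 5.86 CPM in the other Mki67-high sums, and its log2 fold change of 4.62 (SE 2.41) became -0.95 without that group.

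Cep290 had 0.075 to 538 CPM in the Mki67-high sums (median 43.8) and 0 to 18.2 CPM in the Mki67-low sums (median 10.8). It was higher in Mki67-high cells in 5 of 6 library groups. The log2 fold change was 3.80 (SE 1.79, adjusted p = 0.674 from edgeR) and ran from 2.04 to 4.35 when single groups were dropped, lowest without library group 6. Bbs7 was also higher in 5 of 6, with 1.35 to 1056 CPM (median 116) against 0 to 159 CPM (median 0.624) and a fitted log2 fold change of 2.91 (SE 1.90), which was 1.6 without library group 5 and 5.62 without library group 3. When log2(CPM + 1) was averaged over cells, which gives each cell the same weight, Bbs7 had a difference of 2.03 (adjusted p = 0.101 from limma) and Cep290 of 2.23 (adjusted p = 0.139 from limma). Both adjusted values were above the threshold of 0.01. Bbs1, another BBSome subunit, had 0 to 142 CPM (median 0.393) and 0 to 2.5 CPM (median 0.361), with 91.1% of the Mki67-high counts in 1 cell. Its log2 fold change was 4.92 (SE 2.51).

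The negative log2 fold changes of largest size belonged to Tulp3, Ttbk2 and Bbs4. Ttbk2 had 0.107 to 202 CPM (median 11.1) in the Mki67-high sums and 24.5 to 1020 CPM (median 132) in the Mki67-low sums, lower in the Mki67-high class in 5 of 6 library groups. The log2 fold change was -2.64 (SE 1.41, adjusted p = 0.706 from edgeR). Ttbk2 shares exonic bases with Cdan1 on the same strand, so that reads of the shared part cannot be assigned to either gene. The value was -1.02 without library group 5 and -5.04 without library group 6, and limma on cell means gave -0.46. Tulp3, the adaptor that brings membrane receptors and IFT-A together and restrains hedgehog signaling, had 0 to 23.2 CPM (median 0.325) and 0.181 to 94.0 CPM (median 23.1), lower in 5 of 6, with a log2 fold change of -2.93 (SE 1.89). Limma on cell means gave -0.21, and Tulp3 was detected in the larger share of Mki67-high cells (46.9% and 29.3%). Bbs4, which was lower in 6 of 6, had 0 to 29.8 CPM (median 5.97) and 0.308 to 123 CPM (median 37). Its log2 fold change was -2.60 (SE 1.73, adjusted p = 0.764 from edgeR). Bbs4 overlaps Adpgk and Cep290 overlaps 4930430F08Rik on the other strand, and the strand setting of the counting is not known. Gad1, the interneuron marker, was also lower in Mki67-high cells in 6 of 6 library groups, at 3.11 ± 5.77 CPM against 239 ± 269 CPM. Without the 12 cells with an interneuron marker, the log2 fold change was -2.45 for Bbs4 and -2.84 for Tulp3.

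**Figure D4:**
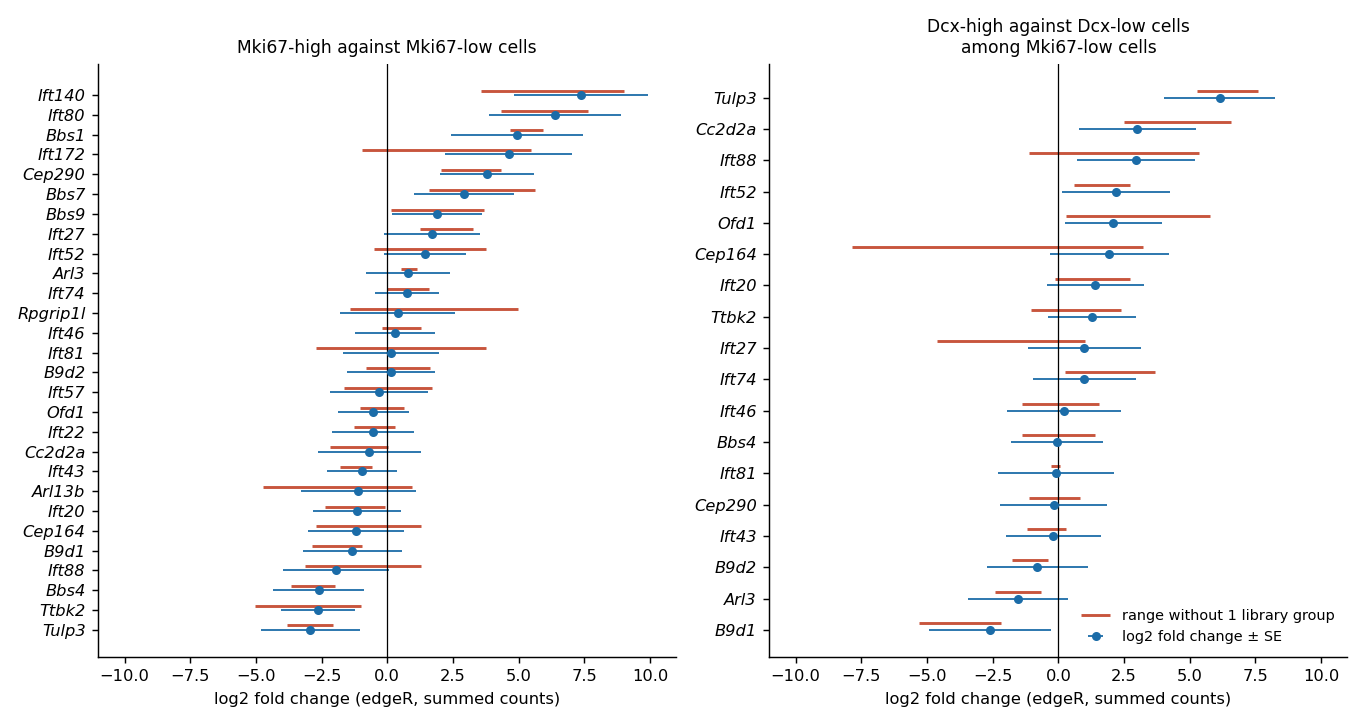
Log2 fold changes from edgeR of the cilium genes that passed the filter, with standard errors (blue) and the range over fits that each leave out 1 of the 6 library groups (red). Left, 28 genes in Mki67-high against Mki67-low cells, from 7.38 for Ift140 to -2.93 for Tulp3. Right, 18 genes in Dcx-high against Dcx-low cells, from 6.14 for Tulp3 to -2.59 for B9d1.

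Among the Mki67-low cells, the Dcx classes carried cilium genes in like numbers. Both had a median of 9 genes at 1 count and of 4 genes at 5 counts. The mean was 8.82 in Dcx-high and 8.84 in Dcx-low cells. Across all 109 cells, Spearman's correlation of a cilium gene with Dcx ran from -0.23 (Ift122) to 0.22 (Ift172), and the one with Mki67 reached 0.39 (Bbs7). The cells share their depth and their library group, and these values are descriptions.

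Counts were summed over 4 to 8 cells per class and library group (8429936 to 39158452 counts). In edgeR, Rbfox3 did not rise with Dcx (log2 fold change -0.76, higher in 3 of 6 library groups). Tubb3 was nearly level (0.12), and Neurod1 was higher in 5 of 6 (0.47). Dcx-high sums were lower for Ccnd2 in 4 of 6 (-1.82) and for Mfap4 in 6 of 6 (-5.24). The astroglial gene Slc1a3 was lower in 3 of 6 (-3.17). None of them was called, and the classes are defined by Dcx alone. In these sums 18 cilium genes passed the filter. Of these, 0 had an adjusted p-value under 0.01 in edgeR, beside 0 of 6682 genes in all (0%). Dcx itself was left out. At an unadjusted p-value under 0.05 there was 1 cilium gene higher and 0 lower, beside 2.39% and 2.77% of all genes. DESeq2 on the same sums called 419 of 11362 genes and 2 of 26 cilium genes, and limma called 0 genes. Of the 18, 11 had a positive log2 fold change (61.1%, against 50.6% of all genes). The median over the 18 was 0.98, against 0.03 over all genes. This median depended on the setting. It was -0.06 over 35 cilium genes without the filter and 0.03 over 26 in DESeq2. Over the 18, limma on cell means gave 0.27 and the library group as a replicate block gave 0.46. Of the 18, 0 were higher or lower in 6 of 6 library groups (1.18% and 1.77% of all genes).

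The gene with the smallest p-value was Tulp3. It had 0.111 to 196 CPM (median 38.4) in the Dcx-high sums and 0.068 to 3.08 CPM (median 0.408) in the Dcx-low sums, and was higher in Dcx-high cells in 4 of 6 library groups. It was lower in library group 3, with 0.508 against 1.41 CPM, and in library group 6, with 0.111 against 0.230 CPM. The log2 fold change was 6.14 (SE 2.10, adjusted p = 0.948 from edgeR), from 5.28 to 7.60 when single library groups were dropped. DESeq2 gave 5.98 (adjusted p = 0.00143). With the library group as a replicate block the value was 4.61, and limma on cell means gave 1.15. Over the 75 Mki67-low cells, Spearman's correlation of Tulp3 with Dcx was 0.05. Interneuron markers were more frequent in Dcx-high cells as given above, and without the 12 cells that carry them the log2 fold change was 6.14 (adjusted p = 0.848 from edgeR). Tulp3 was detected in 13 of 38 Dcx-high and 9 of 37 Dcx-low cells.

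Cc2d2a, a transition zone gene of Joubert syndrome, had 0 to 88.5 CPM (median 56.9) and 0 to 36.8 CPM (median 0.081), higher in Dcx-high cells in 5 of 6 library groups and 0 in both classes of the remaining one. Its log2 fold change was 3.0 (SE 2.23), and 6.58 without library group 2. B9d1, another transition zone gene, had 0 to 78.6 CPM (median 0.692) in Dcx-high and 0 to 193 CPM (median 88.9) in Dcx-low sums, with -2.59 (SE 2.33), and -5.31 without library group 2. Ofd1, which controls centriole length and distal appendages, was higher in Dcx-high cells in 5 of 6 library groups. Its log2 fold change was 2.09 (SE 1.84), and it was 0.28 without library group 3 and 5.79 without library group 1. Ift88 and Ift52 had log2 fold changes of 2.96 (SE 2.25) and 2.19 (SE 2.04), with the highest Dcx-high sums in library group 5, at 590 and 463 CPM. In Ift88 1 cell gave 93.9% of the Dcx-high counts, and the value was -1.13 without library group 5. That of Ift52 was 0.60 without the same group. Bbs7 did not pass the filter, with 40 counts in the Dcx-high and 8399 in the Dcx-low cells, 81.0% of them in 1 cell.

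Other genes of the pathway were followed as lists. Of 17 tested genes among the further IFT, BBSome and motor genes, 0 were called in the Mki67 comparison, and Wdr35, an IFT-A subunit, had the smallest p-value (log2 fold change -5.89, adjusted p = 0.537 from edgeR), followed by Ttc30b of IFT-B (3.83, adjusted p = 0.720 from edgeR). Of 17 further transition zone and ciliary membrane genes 0 were called. Tmem231, part of the tectonic complex, was higher in Mki67-high cells in 6 of 6 library groups, at 10.3 ± 13.9 CPM against 0.059 ± 0.130 CPM (log2 fold change 7.49, adjusted p = 0.393 from edgeR), and Rpgr was higher in 5 of 6 (2.14, adjusted p = 0.790 from edgeR). Of 8 tested genes for taking the cilium down or duplicating the centriole 0 were called. Stil, a centriole duplication factor, was higher in 6 of 6, at 230 ± 159 CPM against 0.230 ± 0.318 CPM (10.08, adjusted p = 0.0163 from edgeR), and so was Aurka, the kinase that starts cilium disassembly, at 150 ± 208 CPM against 6.55 ± 15.6 CPM (4.76, adjusted p = 0.688 from edgeR). Of 14 centriole and appendage genes 0 were called, and the smallest p-values belonged to Cep97 (2.94) and Mib1 (0.96). Of 13 hedgehog pathway genes 0 were called. Sufu, which holds Gli factors back, had -3.17 (adjusted p = 0.635 from edgeR) and was lower in 5 of 6, and Gli2 had 3.02 (adjusted p = 0.715 from edgeR). Of 3 tested RFX genes 0 were called, with -2.82 for Rfx1 and -0.48 for Rfx3. At an unadjusted p-value under 0.05 these 6 lists held Tmem231 and Stil in the higher direction and Wdr35 and Sufu in the lower one.

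In the Dcx comparison 0 genes of these lists were called, of 12, 11, 10, 4, 10 and 2 tested. Ttc21b, an IFT-A subunit, was lower in Dcx-high cells in 6 of 6 library groups, at 0.704 ± 1.27 CPM against 226 ± 388 CPM (log2 fold change -8.34, adjusted p = 0.787 from edgeR). Wdr35 of the same complex was lower in 4 of 6 (-8.93, adjusted p = 0.948 from edgeR), while Ift43 (-0.20) was the only listed IFT-A gene that could be tested. Cep120, needed for centriole elongation, was higher in 5 of 6 (6.40) and Cep97, which caps the mother centriole, was lower in 4 of 6 (-4.82), both with an adjusted p of 0.948 from edgeR. The other genes with the smallest p-values in their lists were Rpgr (-3.23) and Iqcb1 (-1.83) of the transition zone, Ndel1 (-4.28) and Hdac6 (-3.26) of cilium disassembly, the hedgehog co-receptor Boc (-4.72), and Rfx3 (-2.17) and Rfx7 (0.55).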

How the data were processed

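Per the labels and the methods of the study, reads were mapped by the authors with STAR 2.4.1d (build mm10) and counted per gene with HTSeq 0.6.1, and they deposited raw counts for 109 cells, without normalization. The annotation and strand setting are not given in the sources used here. Every gene of the table was seen in 3 cells or more. The cilium genes and the other lists were chosen with earlier results of these data known. CPM were computed over all genes of a cell. Levels are means over cells, whereas tests used counts summed per class and library group. Genes were filtered with filterByExpr, normalized by TMM and tested with edgeR 4.0.16 (quasi-likelihood, Benjamini-Hochberg, threshold 0.01), in R 4.3.3. DESeq2 1.42.0 and limma 3.58.1 (pseudocount 1) served as alternatives. Total counts of 15071 to 8616017 per cell set the precision. Every cilium gene was described by detection and level. Test values were given for genes called, for up to 8 and 6 genes with the smallest p-values in the Mki67 and Dcx comparisons, and for the leading pair of each other list, of which 1 gene is not reported here. Bbs4, Bbs7 in the Dcx comparison, and Aurka beside Stil were described for their counts or direction after their values were seen. Exon lengths and overlaps came from GENCODE vM21 (GRCm38), promoters from RefSeq.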

Additional observations from a re-analysis of the deposited data

Results flagged for a closer look

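Dixon's criterion, the gap to the nearest group over the range, was applied to 65 sets of values of the 6 library groups. In 28 sets a value stood far from the rest. About 5% of sets would be singled out by chance in normally distributed values. Library group 5 held 10 of these 28 values and library group 4 held 6. Among mean levels over all cells, library group 5 stood apart for Ift88 (141 CPM), Bbs2 (126 CPM), Bbs5 (3.65 CPM), Bbs7 (450.1 CPM), Arl13b (165 CPM) and Cep164 (155 CPM). Library group 4 stood apart for Ift172 (229 CPM), Ift140 (122 CPM) and Tctn1 (4.63 CPM), library group 1 for Bbs1 (60.5 CPM), library group 2 for Tctn2 (1.46 CPM) and library group 6 for Mks1 (2.86 CPM).

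Among the sums of Mki67-high cells, the values that stood apart were those of Ift140 (760.1 CPM) and Ift172 (835 CPM) in library group 4, Ift80 (414 CPM) and Bbs1 (142 CPM) in library group 1, Cep290 (538 CPM) and Ttbk2 (202 CPM) in library group 6, and Bbs7 (1056 CPM) in library group 5. In the sums of Mki67-low cells they were Ttbk2 (1020.2 CPM) in library group 5 and Bbs7 (159 CPM) in library group 3. In the sums of Dcx-high cells they were Ift88 (589.6 CPM) and Ift52 (463 CPM) in library group 5, Ofd1 (41.9 CPM) in library group 3 and B9d1 (78.6 CPM) in library group 2. In the sums of Dcx-low cells they were Cc2d2a (36.8 CPM) in library group 2, Ift88 (72.6 CPM) in library group 4 and Ofd1 (11.9 CPM) in library group 1.

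The 2 cells between the Mki67 classes, both of library group 4, were left out of the main comparisons. They entered the levels over all cells and the correlations with Dcx and Mki67 over 109 cells. Alternative fits that split all cells at 100 or at 10 CPM of Mki67 also held them. Each of these fits called 2 genes, 0 of them cilium genes. The cells between the classes had 21.3 and 66.4 CPM of Mki67. They had at least 1 count of 15 and 4 cilium genes, the latter in the cell with 15071 counts.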

How the results depend on the processing

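In the Mki67 comparison the count of called genes, 2 in edgeR, was 0 with the library group as a replicate block, 376 with DESeq2, 6 with DESeq2 size factors, 76 and 26 with limma at pseudocounts of 1 and 10, 46 with cells as units, 29 with detected genes as a further term, 1 without the unusual cells, 1 without the astroglial cells, 6 at a threshold of 0.05, and 0 to 1 with each library group left out. The fits with cells as units, with or without the further term, took cells of 1 library group as replicates, which they are not. The p-values of these fits do not measure the spread between library groups. Of the cilium genes DESeq2 called 1. Their median log2 fold change was 1.64 with cells as units and 0.94 with detected genes as a further term (2 genes tested in each), -0.35 after thinning (25 genes), and -0.29 to 0.55 with each library group left out. In the Dcx comparison DESeq2 called 419 genes, 2 of them cilium genes, namely Tulp3 and Bbs7 (-7.28, adjusted p = 0.00791), and the median ran from -0.15 to 1.28 with each library group left out. With cells as units no cilium gene passed the filter there. Reversed values were Ift172 (-0.95 without library group 4, range to 5.46), Ift88 (-1.13 without library group 5, range to 5.36) and Ift52 (-0.25 between the cells highest and lowest in Dcx, without the middle ones). Leaving out cells with an interneuron marker, chosen after seeing the data, gave 3 and 0 called genes. The medians per cell were 6 and 4 cilium genes at 5 counts, and at 1 count 8 and 6 after thinning. The median level was 18.1 CPM with medians over library groups. The causes were not tested. The 2 sums of a library group were barely correlated in their deviations (-0.01 to 0.06), and the main fit held no term for the group. With the block 0 cilium genes were called, as without it, but single log2 fold changes moved. In the Mki67 comparison Bbs7 went from 2.91 to 8.88, B9d1 from -1.33 to -7.15 and Ift172 from 4.62 to 0.80. Ift80 (6.38 and 6.52) and Cep290 (3.80 and 3.58) moved little. Bbs5 and Mks1, seen in 4 of 32 Mki67-high cells, were seen in 3 after thinning.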
